A study of Mus musculus with 4 samples.

Results

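Within the leukocytes of mouse KPC tumors, 189 CD8 T cells carried RNA of granzymes C, D, E and F at 5 or more molecules a cell. They were chosen by raw counts of unique molecular identifiers (UMIs, which count RNA molecules): at least 1 UMI of Cd3e, Cd3d or Cd3g, at least 1 of Cd8a or Cd8b1, none of Cd4, at least 5 of Gzmc, Gzmd, Gzme and Gzmf summed, and fewer than 2 of the division genes Mki67 and Top2a. They made up 189 of the 3160 CD8 cells that met all of these conditions other than the granzyme sum, and they were found among 23011 cells that passed the quality limits, of 24839 barcodes. The other 2971 CD8 cells, with 0 to 4 UMIs of the 4 granzymes, are called other CD8 cells here. The levels of Gzmc, Gzmd, Gzme, Gzmf, Cd8a and the further genes of the rule chose the cells, so these levels are given as a description and were not tested.

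The tumors grew under the skin of male C57BL/6NHsd mice from KPC cells, a pancreatic tumor line from mice with a mutant Trp53 allele and Cre recombinase driven by the Pdx1 promoter. The groups were untreated mice, mice given the STING agonist ADU-S100 into the tumor, mice given the LTβR agonist, the antibody 4H8, into the peritoneum, and mice given both agonists (combination therapy). Tumors of a group were pooled on the day of resection and dissociated, live CD45+ cells were sorted, and each group had 1 library of 5-prime single-cell RNA. The comparison of interest was how each agonist, alone or in combination, changed tumor-infiltrating immune cells.

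Cytotoxic T cells kill by releasing granules that hold perforin, which opens the membrane of the target, and granzymes, serine proteases that enter through it. Granzyme B is the common granzyme of effector CD8 cells, while granzymes C to F are a rodent group whose genes lie beside Gzmb and whose RNA is known from strongly activated T cells and from natural killer (NK) cells. Serine protease inhibitors such as Serpinb9 guard the killer cell against its own granzyme B.

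The genes that define these cells are neighbours. In GRCm38, Gzme, Gzmd, Gzmg, Gzmn, Gzmf, Gzmc and Gzmb lie in this order on the minus strand of chromosome 14, between positions 56117626 and 56262260, a span of 145 kb. Gzme runs from 56117626 to 56120625, Gzmd from 56129556 to 56132608, Gzmf from 56205263 to 56211417 and Gzmc from 56231441 to 56234656. Gm4022, annotated as an antisense gene on the plus strand from 56173751 to 56207735, shares 2473 bases with Gzmf and 849 with Gzmn. The sequences just before the transcription starts are printed because the genes that define these cells share most of these bases, whereas their neighbour Gzmb, which most CD8 cells carried, does not. They come from RefSeq on GRCm38.p6, 200 bases each, 5′ to 3′ on the gene's strand. The RefSeq starts differ from the gene ends given above. The Gzmb window begins at 56262335, beyond the gene end at 56262260. The Gzmd and Gzmf windows begin at 56132594 and 56211408, inside genes that end at 56132608 and 56211417. Identities and distances depend on these starts, and the contrast with Gzmb was not repeated from other starts. Capitals mark matches to TGANNTCA, a form of the cyclic AMP response element, and to AACCACA, a RUNX motif, or its reverse complement.

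Gzmc, chr14:56234658-56234857, minus strand: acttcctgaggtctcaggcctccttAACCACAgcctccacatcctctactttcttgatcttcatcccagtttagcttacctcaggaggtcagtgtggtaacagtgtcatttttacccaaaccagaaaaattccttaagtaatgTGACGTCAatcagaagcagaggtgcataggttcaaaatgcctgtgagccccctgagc
Gzmd, chr14:56132594-56132793, minus strand: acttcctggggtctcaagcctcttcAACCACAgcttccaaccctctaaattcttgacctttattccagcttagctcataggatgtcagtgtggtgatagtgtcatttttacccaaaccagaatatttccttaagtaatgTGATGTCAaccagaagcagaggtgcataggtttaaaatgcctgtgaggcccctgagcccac
Gzme, chr14:56120626-56120825, minus strand: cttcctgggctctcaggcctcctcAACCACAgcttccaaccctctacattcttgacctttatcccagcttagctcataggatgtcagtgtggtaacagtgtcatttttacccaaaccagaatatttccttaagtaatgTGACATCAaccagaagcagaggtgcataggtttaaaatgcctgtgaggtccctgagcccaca
Gzmf, chr14:56211408-56211607, minus strand: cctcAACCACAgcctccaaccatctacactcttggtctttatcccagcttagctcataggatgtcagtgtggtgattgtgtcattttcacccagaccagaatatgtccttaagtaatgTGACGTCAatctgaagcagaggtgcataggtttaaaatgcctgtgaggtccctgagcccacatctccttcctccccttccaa
Gzmg, chr14:56159580-56159779, minus strand: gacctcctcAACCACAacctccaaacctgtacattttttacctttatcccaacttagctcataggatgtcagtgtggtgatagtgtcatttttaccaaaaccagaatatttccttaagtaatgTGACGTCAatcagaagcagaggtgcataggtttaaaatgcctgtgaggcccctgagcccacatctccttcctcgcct
Gzmb, chr14:56262335-56262534, minus strand: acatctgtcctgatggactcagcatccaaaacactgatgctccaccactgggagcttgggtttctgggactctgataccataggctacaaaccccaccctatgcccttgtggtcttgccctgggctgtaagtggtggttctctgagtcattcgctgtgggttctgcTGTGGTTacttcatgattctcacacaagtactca

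All 6 genes had a RefSeq promoter entry. Over the 250 bases before the RefSeq start, the 10 pairs among Gzmc, Gzmd, Gzme, Gzmf and Gzmg were 79.2% to 95.2% identical, with Gzmd and Gzme at 95.2%. The 5 pairs with Gzmb were 56.4% to 60.8% identical. A search of both strands found TGANNTCA in 5 of the 6 promoters, at 57, 61, 62, 82 and 77 bases before the start of Gzmc, Gzmd, Gzme, Gzmf and Gzmg, and in 11.9% of all 32851 promoter entries. AACCACA was in all 6 promoters and in 4.40% of all entries. It began 175 to 196 bases before the start of the 5 genes and stood 34 bases before the start of Gzmb on the other strand. The AP-1 motif TGANTCA was in the Gzmb promoter only, at 58 bases, and in 6.75% of all entries. The STAT motif TTCNNNGAA (7.02% of all entries) and the T-box motif GGTGTGA (3.33%) were in none of the 6 windows. These matches are letters and not evidence that a factor was bound. The transcripts of the 5 genes were 72.6% to 90.4% identical and those of Gzmd and Gzme 90.4%. Of the 50-base windows of the Gzme transcript, 12.7% occurred unchanged in Gzmd, so that counts of this pair can be shared between them and the split is uncertain.

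Depth and cell quality bear on every value that follows. The granzyme C to F cells had median depths of 10462, 11976, 8606 and 10124 UMIs (libraries in the order untreated, STING agonist, LTβR agonist, combination, used for all series of 4 values below), and the other CD8 cells 6128, 6642, 5687 and 6046. Their summed depth was 772939, 652607, 152152 and 531687 UMIs. Median genes per cell were 2680 to 3414 in the granzyme C to F cells and 2168 to 2465 in other CD8 cells. Mitochondrial RNA was low in both, at 0.912% to 1.19% and 1.09% to 1.36% of the summed UMIs. Of the granzyme C to F cells, 3 (1.59%) had a barcode sequence that also occurred in another library, against 2.14% of all filtered cells.

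The share of CD8 cells with granzymes C to F was lowest with the LTβR agonist alone and highest with the STING agonist alone. In untreated tumors it was 7.63% (70 of 918 cells, Clopper-Pearson 95% interval 5.99 to 9.54), and STING agonist tumors had 9.89% (52 of 526, 7.47 to 12.8). Tumors treated with the LTβR agonist had 1.96% (15 of 766, 1.10 to 3.21) and those under combination therapy 5.47% (52 of 950, 4.11 to 7.12). The interval of the LTβR agonist lay apart from the 3 others, while those of untreated and STING agonist tumors and those of untreated and combination tumors overlapped. All intervals here cover counting error only, since 1 library per group leaves no spread between pools of tumors, and no test between treatments was made.

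**Figure D1:**
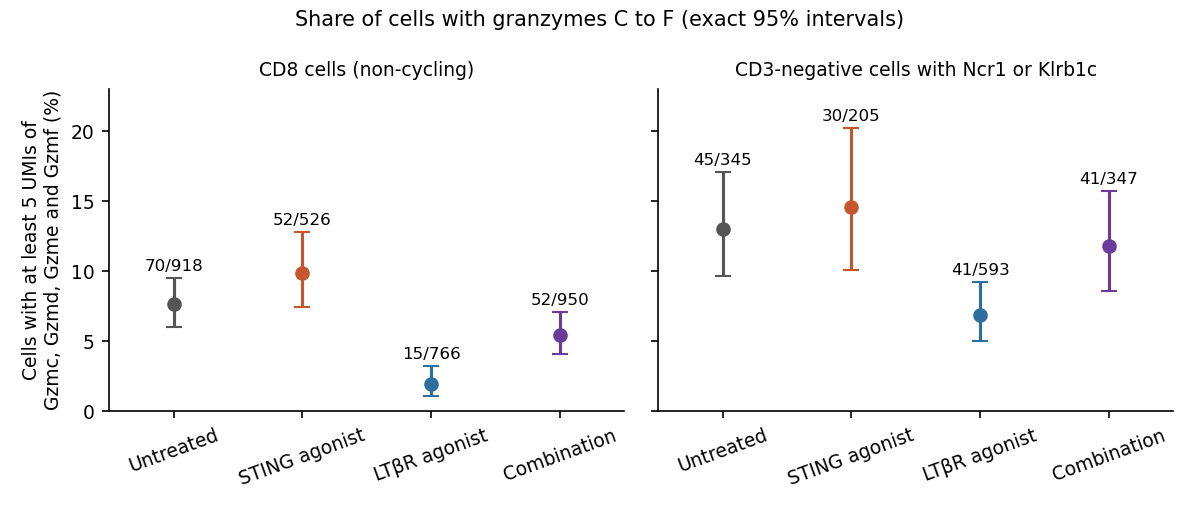
Percent of cells with at least 5 UMIs of Gzmc, Gzmd, Gzme and Gzmf in each library, with exact 95% intervals and cell counts above each point, for non-cycling CD8 cells (left) and for CD3-negative cells with an Ncr1 or Klrb1c UMI (right). In both panels the LTβR agonist library sits lowest, at 1.96% and 6.91%.

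As ratios, with each interval set against the opposite bound of the other, the LTβR agonist share was 0.257 of the untreated share (0.115 to 0.536) and the STING agonist share 1.30 times it (0.784 to 2.13). The combination share was 0.718 of untreated (0.431 to 1.19), 2.80 times the LTβR agonist share (1.28 to 6.47) and 0.554 of the STING agonist share (0.322 to 0.952). The ratio to the STING agonist was less firm: with all filtered cells as the denominator it was 0.703 (0.402 to 1.23), and shares were then 1.03%, 1.39%, 0.210% and 0.975%. Among CD8 cells of 8000 to 16000 UMIs, where depth differs less, shares were 14.9%, 15.5%, 4.43% and 11.3%, and the ratio of the LTβR agonist to untreated was 0.298 (0.103 to 0.764). Within that depth range the ratio of the combination to the LTβR agonist, 2.56, had an interval that included 1 (0.929 to 7.80).

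The same granzymes were carried by other cells of these tumors. Of 473 filtered cells with at least 5 UMIs, 189 (40.0%) were the CD8 cells described here, 52 were cycling CD8 cells, 23 were CD3 cells with Cd4, and 41 were CD3 cells without Cd4, Cd8a or Cd8b1. A further 157 (33.2%) lacked CD3 RNA and carried Ncr1 or Klrb1c, genes of NK-cell receptors. Among such CD3-negative cells the granzymes were found in 45 of 345 in untreated tumors. STING agonist tumors had 30 of 205 (14.6%), LTβR agonist tumors 41 of 593 (6.91%) and combination tumors 41 of 347 (11.8%). The order of the libraries was that seen among CD8 cells. Cells that should lack these genes seldom reached the threshold. No B cell and no neutrophil had 5 UMIs in any library, and 1 of 1335 macrophages had (0.0749%, untreated library). The STING agonist library had only 12 B cells, and neutrophils had medians of 2299 to 2433 UMIs. The part of free RNA in the granzyme counts was not tested. The share of macrophages with at least 1 UMI was 0.917% to 2.02%, at medians of 9930 to 11834 UMIs.

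The threshold cut through a continuous range. In all, 10 granzyme C to F cells had exactly 5 UMIs, at a median depth of 9079 UMIs, and 17 other CD8 cells had exactly 4, at a median depth of 7250. Of the other CD8 cells, 2775 had none and 196 had 1 to 4. The summed UMIs of the 189 cells ran from 5 to 668 with a median of 22 and quartiles of 11 and 67. By library the medians were 20, 29.5, 20 and 27.5 and the highest cells 208, 349, 495 and 668. The top 10 cells held 36.1% of all 11056 UMIs, and 97.7% in the LTβR agonist library with its 15 cells, so that levels there rest on few cells.

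Gzmf was the leading granzyme of the group. It supplied 57.6% of the summed UMIs and Gzmc 19.2%, with Gzme lowest at 10.2%. By cell, Gzmf was highest in 125 cells, Gzmc in 29, Gzmd in 20 and Gzme in 12, with 3 ties. Gzmf had 1710.4, 3742, 4246 and 3675 CPM (the UMIs of a gene scaled to a common total, here over all UMIs of these cells). Gzmc had 568, 676, 3891 and 1232 CPM, with the LTβR agonist library far above the others, and 1 cell held 51.0% of its UMIs there. Gzmd had 466, 572, 933 and 1066 CPM and Gzme 432, 424, 453 and 833 CPM. None of the 4 genes exceeded 10.4 CPM in the other CD8 cells of any library.

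Most cells did not carry all of these genes. UMIs of 1, 2, 3 and 4 of the genes were found in 61, 67, 25 and 36 cells, and in 106 cells a single gene supplied over 80% of the sum. Gzmd and Gzme went together within cells: Gzme was found in 74 of the 85 cells with Gzmd (87.1%) and in 5.77% of those without it. In each library 81.0% to 92.6% of the cells with Gzmd had Gzme. No other pair of the 4 genes showed this. For instance, Gzmf was found in 76.5% of the cells with Gzmc and in 79.3% of those without it. The gate on the sum ties the genes to each other, and reads shared between Gzmd and Gzme were not separable here, so no test was made of these shares.

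**Figure D2:**
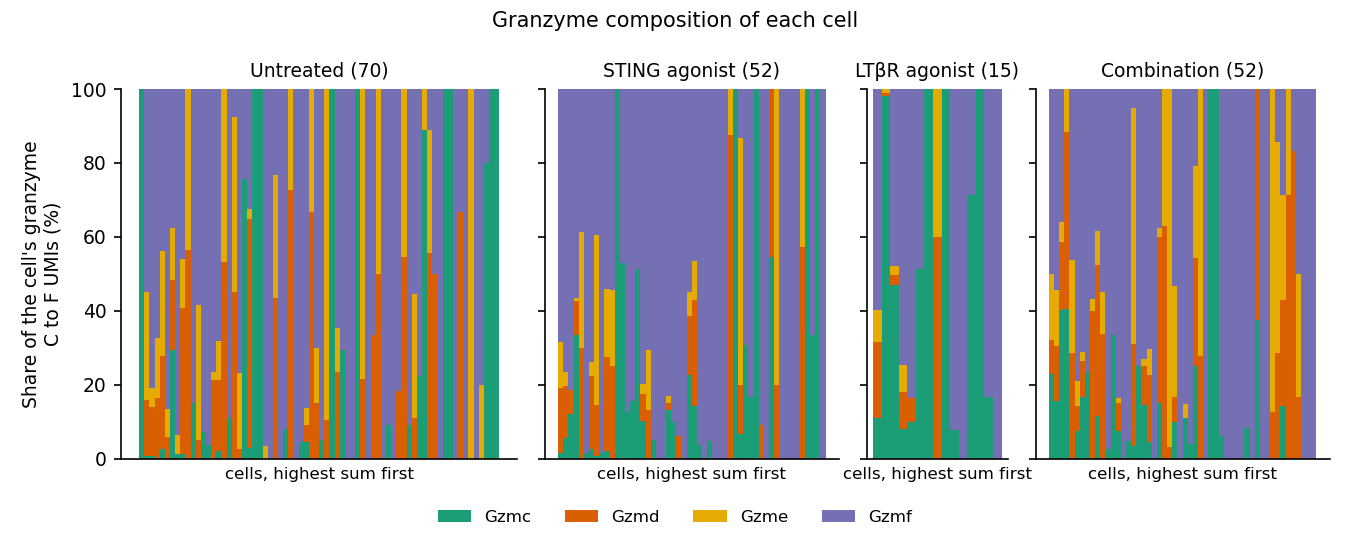
Each vertical bar is 1 of the 189 cells, grouped by library and ordered from the highest granzyme C to F sum on the left, and the colors give the percent of that sum from Gzmc, Gzmd, Gzme and Gzmf. Gzmf fills most bars, and bars with Gzmd commonly hold Gzme too (74 of 85 cells).

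The rule itself asked for CD8 RNA, and both Cd8a and Cd8b1 were found in 182 of the 189 cells. Of genes it did not use, a constant gene of the αβ T cell receptor was found in 179 cells, while Trdc, of the γδ receptor, was found in 2, Ncr1 in 5 and Klrb1c in 9. Fcer1g, an adaptor common in NK and myeloid cells, was found in 60 cells, and Tyrobp, a similar adaptor, in 21. Markers of other cell types were summed over lists. Macrophage, dendritic cell and neutrophil sums were lower than in other CD8 cells in every library, and NK sums were higher. The share of cells with any such marker did not follow the sums: for macrophage markers it was 50%, 25%, 46.7% and 21.2%, against 38.0%, 30.0%, 36.4% and 34.5% in other CD8 cells. For dendritic cell markers it was 37.1%, 28.8%, 46.7% and 30.8%, against 33.8%, 18.6%, 29.8% and 33.5%. The 9 macrophage and monocyte markers reached 666, 33.7, 85.4 and 28.2 CPM in the granzyme C to F cells, against 1269, 741, 1023 and 973 CPM in other CD8 cells. The 7 dendritic cell markers reached 387, 178, 329 and 43.3 CPM against 1641, 739.5, 1468 and 1207 CPM, and Siglech and Clec9a were at 0 in all 4 libraries. The 5 neutrophil markers reached 0 to 13.1 CPM against 1.78 to 390.4 CPM. The 5 B and plasma cell markers were at 0 in 3 libraries and at 237 CPM in the LTβR agonist library, from 2 of its 15 cells. The 5 mast cell and basophil markers were at 0 in all 4 libraries. The 7 tumor and stromal markers reached 12.3 to 59.2 CPM against 29.9 to 42.1 CPM, the 5 NK markers 318 to 499.5 against 205 to 278 CPM, and the 5 γδ markers 30.1 to 92.0 against 33.9 to 86.0 CPM. The NK sum was mostly Klre1, the only one of its 5 genes called higher in the comparison given below. Ncr1, Klrb1c, Klrb1b and Eomes were not called there.

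The question of what else sets these cells apart was addressed within libraries. UMIs were summed over the granzyme C to F cells and over the other CD8 cells of each library, and the 4 pairs of sums were compared with edgeR's quasi-likelihood test with library as a block, leaving out the 12 genes of the rule and the T and B cell receptor segments. Of 10358 genes tested, 441 (4.26%) were higher and 619 (5.98%) lower at a Benjamini-Hochberg adjusted p under 0.05, and the median log2 fold change over all genes was -0.00. All fold changes, adjusted p-values and calls below are from this fit, and CPM given with them leave out the same genes. The counts fell to 163 and 276 with no block, and to 90 and 166 when each cell was thinned to 2000 UMIs. They were 250 higher without the untreated library, 284 without the STING agonist library, and 211 higher and 355 lower without the combination library. The greater depth of the granzyme C to F cells and the lower macrophage and dendritic cell RNA in them moved with this comparison, and their part in it beyond these alternatives was not tested.

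Of the 14 tested granule genes 8 were higher, 1 was lower and 5 were not called, with a median log2 fold change of 0.65. The 8 included Gzmg, which passed the low-count filter through the granzyme C to F cells alone. Its call is a description and not a test result. Fasl, Srgn and Lamp1 were among those not called, and the call of Nkg7 was lost in 6 of 13 alternatives. Perforin (Prf1) was at 1775 against 989.6 CPM in untreated tumors, 1586 against 859 with STING agonist treatment, 822 against 512 with LTβR agonist treatment and 1279.9 against 677 under combination therapy, for the granzyme C to F cells and other CD8 cells respectively. Each library showed the difference, and the LTβR agonist library was lowest in both kinds of cell (log2 fold change 0.92, SE 0.08, adjusted p = 1.90e-06). Granzyme B was at 3340.4 against 1905, 3452 against 2242, 1449 against 954 and 3725 against 1592 CPM (0.91, SE 0.09, adjusted p = 1.07e-05). With no block for the library its adjusted p was 0.0751. Gzmb was found in 96.8% of the granzyme C to F cells and in 64.1% of the others.

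The inhibitor that guards against granzyme B was also higher. Serpinb9 was at 469.5, 454, 448 and 334 CPM against 227, 312, 138 and 203 CPM, so that every value lay above all 4 of the other CD8 cells (1.02, SE 0.13, adjusted p = 1.39e-04). Its paralogs Serpinb6b (0.84, SE 0.14) and Serpinb9b (3.39, SE 0.28) were higher too, with adjusted p = 0.102 for Serpinb6b after thinning. Serpinb9b was a gene of few cells, found in 29 granzyme C to F cells, of which the top 10 held 71.8% of its UMIs. Reads of such close paralogs can be shared, and their split is uncertain. Granzyme K (Gzmk), common in less differentiated effector cells, was the lower gene of the list at -0.74 (SE 0.15, adjusted p = 0.00470; 0.0662 with no block and 0.144 after thinning). Granzyme A (Gzma) did not pass (1.27, SE 0.42, adjusted p = 0.0675): 15 of the 189 cells had it, and 10 of them held 99.6% of its UMIs.

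The neighbours of the defining genes were carried by these cells as well. Gzmg, which lies between Gzmd and Gzmn, had 8, 32, 1 and 81 UMIs in the granzyme C to F cells and none in 2971 other CD8 cells. It passed the low-count filter through the granzyme C to F cells alone. Against a floor of 3 UMIs over the other CD8 cells it was at least 402-fold higher, given as a description. It was found in only 17 cells, of which 10 held 94.3% of its UMIs. Its transcript is 74.0% to 89.3% identical to those of Gzmc, Gzmd, Gzme and Gzmf, so part of these counts may belong to them. Gzmn had no UMI in either kind of cell. The antisense gene Gm4022 had 51 UMIs in 34 granzyme C to F cells and 2 UMIs in other CD8 cells (log2 fold change 7.46). Its overlap with Gzmf, which chose the cells, leaves uncertain which strand those reads came from, so no p-value is given for it.

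Genes of naive and memory T cells were low. Of 15 tested, 10 were lower and none higher, with a median log2 fold change of -1.39. Tcf7, a factor that keeps T cells in a stem-like or memory state, was at 3.92, 6.22, 26.7 and 0 CPM against 43.1, 82.7, 94.7 and 98.2 CPM, and the groups did not overlap (-3.67, SE 0.37, adjusted p = 1.17e-05). Lef1, its close relative, was at 13.4 to 15.5 against 53.3 to 112 CPM (-2.37, SE 0.22, adjusted p = 5.88e-06). S1pr1, the receptor by which T cells leave tissue, had 1 UMI in the granzyme C to F cells and 661 in the others (-5.69, SE 0.60, adjusted p = 1.96e-05). Klf2, the factor that drives S1pr1, was at 14.4 to 28.6 CPM against 86.8 to 172 CPM (-2.63, SE 0.17, adjusted p = 2.55e-07). Bach2, Satb1 and Foxp1, factors of quiescent T cells, were lower by smaller amounts, at -1.23, -0.75 and -1.10. Slamf6 and Ccr7 were lower at -3.38 and -1.79. Slamf6 had adjusted p = 0.0792 after thinning. For Ccr7, adjusted p was 0.169, 0.106 and 0.108 without the untreated, LTβR agonist and combination library in turn. Il7r, the interleukin-7 receptor, was at 223 to 283 CPM against 217 to 295 CPM (0.03, SE 0.11).

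Among effector transcription factors 3 of 15 were higher and 2 lower, with a median of -0.09. Irf8, an interferon regulatory factor used by effector CD8 cells as well as by myeloid cells, was at 663 against 334, 595 against 273, 614 against 209.7 and 499.8 against 226 CPM. It was higher in every library (1.26, SE 0.10, adjusted p = 1.14e-06) and found in 90.5% of the granzyme C to F cells against 52.4% of the others. T-bet (Tbx21), which drives effector genes, was at 187 to 306 against 132 to 205 CPM (0.61, SE 0.10, adjusted p = 0.00103), and after thinning its adjusted p was 0.0866. Id2 was also called higher, but its call was lost in 9 of 13 alternatives. These included the fits without the untreated, the LTβR agonist or the combination library. Maf and Zeb2 were lower at -2.04 and -0.68, with adjusted p = 0.0873 for Zeb2 after thinning. Eomes, Prdm1 and Runx3 did not pass, with log2 fold changes of -0.66, -0.07 and 0.23.

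Of 17 checkpoint and exhaustion genes, which include inhibitory receptors and transcription factors, 3 were higher and 2 lower, with a median of 0.06. Pdcd1, which encodes PD-1, was at 509, 712, 468 and 669.5 CPM against 408, 523, 302 and 418 CPM (0.59, SE 0.09, adjusted p = 6.22e-04), a difference seen in each library and of adjusted p = 0.0651 with no block. Havcr2 (TIM-3) and Lag3 were above the other CD8 cells in each library by small amounts that did not pass, at 0.28 (SE 0.09, adjusted p = 0.0734) and 0.26 (SE 0.08, adjusted p = 0.0636). Tox, a factor of exhausted T cells, was at 315, 373, 307 and 166 against 473, 312, 498 and 266 CPM, with the groups overlapping and no call (-0.30, SE 0.14). Ctla4, Tigit and Entpd1 had log2 fold changes of 0.17, -0.21 and 0.10 and did not pass.

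**Figure D3:**
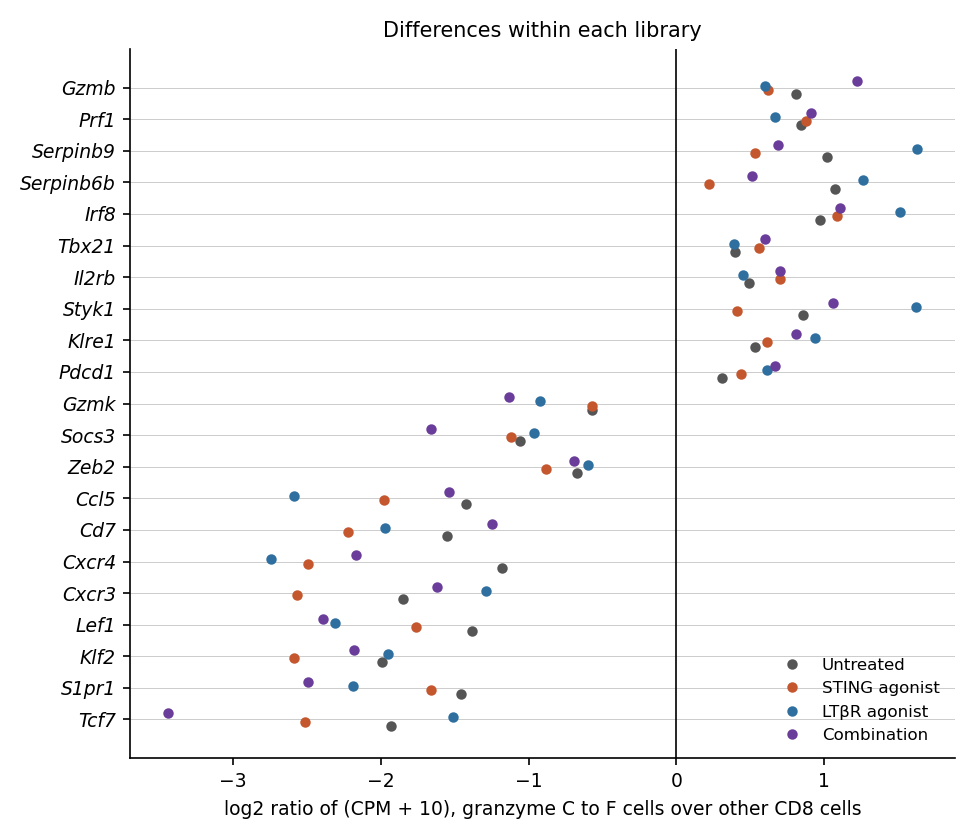
Log2 ratio of (CPM + 10) between granzyme C to F cells and other CD8 cells of the same library for 21 genes, with 1 point per library and color for treatment. Prf1, Irf8 and Il2rb lie to the right of 0 and Tcf7, Klf2, Cxcr3 and Ccl5 to the left in all 4 libraries.

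Receptors that NK cells use and receptors of interleukin-2 and interleukin-15 formed the next groups. Of 20 NK-type receptors 4 were higher and none lower, with a median of 0.22: Klre1 (0.81), Klri2 (0.91), Styk1 (1.03) and Klra5 (2.11). Styk1, a kinase-like membrane protein of NK cells, was at 305, 218, 227 and 280.4 CPM against 164, 161, 67.0 and 129 CPM (SE 0.14, adjusted p = 2.13e-04). Klri2 had adjusted p = 0.231 after thinning. Klra5 was at 120.2 CPM in the combination library and 13.4 to 31.4 CPM in the others, and without the combination library its log2 fold change was 1.12 (adjusted p = 0.0771). Il2rb, the shared β chain of the interleukin-2 and interleukin-15 receptors, was at 1165, 1341, 1102 and 1175 CPM against 829.7, 821, 804 and 718 CPM, with no overlap between the groups (0.68, SE 0.08, adjusted p = 6.81e-05). In its list of 18 genes 3 were higher and 2 lower, with a median of 0.11, but of 13 alternatives 7 ended the call of Il2rg and 8 that of Stat5b, and 8 ended that of Cish while a further 1 reversed it. Without the untreated library the adjusted p of Il2rg, Cish and Stat5b was 0.0704, 0.381 and 0.0640, and without the combination library 0.139, 0.249 and 0.154. Without the LTβR agonist library it was 0.0578 for Cish and 0.0666 for Stat5b. Socs3, an inhibitor of cytokine receptors, was lower at -1.30 (SE 0.17, adjusted p = 1.26e-04; 0.295 after thinning).

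Chemokines and the receptors that guide T cells were mostly lower. Of 16 cytokine and chemokine genes 5 were lower and 1 higher, with a median of -0.48. Ccl5, a chemokine of memory and effector CD8 cells, was at 2849.9, 1457, 875 and 1602 CPM against 7662, 5755, 5310.5 and 4677 CPM, so that the highest granzyme C to F value lay below the lowest of the others (-1.76, SE 0.13, adjusted p = 4.60e-07). Ccl3 and Ccl4 were lower by -0.58 and -0.55, and with no block their adjusted p was 0.301 and 0.363. Ccl3 had adjusted p = 0.405 among CD8 cells of 8000 to 16000 UMIs, and Ccl4 had 0.0738 without the untreated library. Ifng, the cytokine interferon-γ, was the higher gene (0.48, SE 0.11, adjusted p = 0.0113), but it was at 369 against 373 CPM in untreated tumors. Without the STING agonist or the combination library its adjusted p was 0.101 and 0.0611.

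Of 11 chemokine receptors and adhesion genes 6 were lower and none higher, with a median of -0.51. Cxcr3, which guides effector T cells to inflamed sites, was at 1.31, 3.11, 6.68 and 3.81 CPM against 30.7, 67.6, 30.7 and 32.5 CPM (-3.76, SE 0.37, adjusted p = 9.81e-06). Cxcr4 was at 27.5, 4.66, 6.68 and 15.3 against 74.9, 72.7, 102 and 103 CPM (-2.34, SE 0.27, adjusted p = 5.68e-05). Both receptors were lower in every library with no overlap. Itgb7 was lower at -1.71 and Ccr2 at -1.08, with adjusted p = 0.156 for Ccr2 after thinning. Itga4 and Itgb1 were lower at -0.51 and -0.68, with adjusted p = 0.0913 for Itga4 without the combination library and 0.0544 for Itgb1 without the untreated library. Among 11 tissue-residence genes 4 were higher and 3 lower (median 0.23). Itga1, an integrin of resident T cells, was higher at 0.63 and Zfp683 (Hobit), a factor of such cells, at 1.51, while Cd7 was lower at -2.14, Ahr at -1.19 and Cd69 at -0.68. Itga1 and Ahr had adjusted p = 0.438 each after thinning. Zfp683 had adjusted p = 0.0970 without the STING agonist library and 0.0518 without the combination library, and Cd69 had 0.112 and 0.0862 without the same libraries.

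Of 15 genes induced by type I interferon 5 were lower and none higher (median -0.54), among them Ifi27l2a at 838, 867, 661 and 650.5 CPM against 1589, 1438, 2058 and 1438 CPM (-0.99, SE 0.11, adjusted p = 3.49e-05). Isg15 was not called. Ifi27l2a kept its call in all 13 alternatives, but the 4 other lower genes did not. Without cells with an Fcer1g UMI the adjusted p was 0.618 for Irf7, 0.0916 for Bst2 and 0.0563 for Gbp2. Oasl2 had adjusted p = 0.0918 after thinning. Of 11 genes of the STING and lymphotoxin receptor pathways 4 were lower and none higher (median -0.37), with Nfkbia, an inhibitor of NF-κB, at -1.01 (SE 0.17, adjusted p = 0.00101). Nfkbia kept its call in all 13 alternatives, but Nfkb1, Tnfaip3 and Birc3 did not. Nfkb1 had adjusted p of 0.119 and 0.102 without the STING agonist and the combination library, and Birc3 had 0.0655 without the latter. Among CD8 cells of 8000 to 16000 UMIs adjusted p was 0.253 for Nfkb1, 0.320 for Tnfaip3 and 0.224 for Birc3. Of 16 glycolysis and hypoxia genes 3 were higher (median 0.26), of 13 cell cycle and replication genes 2 (median 0.35), and none in either list was lower. None of these 5 calls held among CD8 cells of 8000 to 16000 UMIs, where adjusted p was 0.367 for Pgk1, 0.541 for Eno1, 0.625 for Bnip3, 0.376 for Mcm3 and 0.952 for Stmn1. The glycolysis calls were also lost without the untreated library (adjusted p = 0.166, 0.209 and 0.169 for Pgk1, Eno1 and Bnip3) and without the combination library (0.126, 0.207 and 0.296). Mcm3 had 0.0926 without the combination library, and Stmn1 had 0.445 and 0.0698 without the untreated and the STING agonist library. Of 12 immediate early and heat shock genes 1 was higher and 3 lower (median 0.06), and of 9 TNF-family costimulators 1 was higher, Tnfrsf9 (4-1BB) at 0.52, and 1 lower (median 0.00). Tnfrsf9 had adjusted p = 0.0560 without the untreated library and 0.0779 without the combination library.

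Beyond the lists, the genes with the highest fold changes that were higher in all 4 libraries followed Gzmg, Gm4022 and Serpinb9b. Gipc2, a PDZ-domain adaptor, was found in 65 cells (34.4%) against 5.72% of other CD8 cells and was at 51.0, 42.0, 66.8 and 61.0 CPM against 3.61 to 16.2 CPM (2.25, SE 0.30, adjusted p = 1.49e-04). C1qtnf6, a secreted protein with a C1q-like domain, was found in 75 cells (39.7% against 9.49%), at 58.9, 91.7, 100.2 and 47.7 CPM against 21.5, 14.8, 19.1 and 14.8 CPM (2.07, SE 0.22, adjusted p = 2.17e-05). Ctnnd2, a δ-catenin of cell junctions, was found in 36.0% against 9.56% of cells (1.67, SE 0.22). In all 3 the lowest granzyme C to F value was above the highest of the other CD8 cells. Their choice by fold and by sign in all 4 libraries favors such a separation. The share of all tested genes separated in this way was not counted, here or for the genes given above as not overlapping. Tjp1, a tight-junction scaffold (2.00), Exph5, a Rab27 effector of vesicle transport (1.96), Ly6g5b (1.82) and Fam178b (2.65) were found in 13.2% to 24.9% of cells. Tjp1 had adjusted p = 0.366 after thinning, and Fam178b had 0.224 among CD8 cells of 8000 to 16000 UMIs.

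The 12 lower genes with the largest fitted changes had no UMI in the 189 cells. They passed the low-count filter through the other CD8 cells alone. They were Il2, G0s2, Siglech, Mgl2, Slc7a2, Anpep, Dcstamp, Hsd3b7, Cox6a2, Itgb8, Ifngas1 and Zfhx3, with 139 to 277 UMIs in other CD8 cells. Each was found in 0.370% (Il2) to 3.84% (Ifngas1) of other CD8 cells, so that 189 cells set no firm bound on a fold for the rarest of them. Il2, the T cell growth factor, was found in 0.370% of other CD8 cells, 10 of them held 99.5% of its 186 UMIs, and it was highest in the STING agonist library, at 40.2 CPM. Siglech, a plasmacytoid dendritic cell receptor, and Mgl2, a lectin of macrophages and dendritic cells, were found in 0.640% and 1.75% of other CD8 cells. By DESeq2, Il2 had adjusted p = 0.734, Siglech 0.0838 and Cox6a2 0.198. Siglech, Hsd3b7 and Zfhx3 had adjusted p of 0.0754, 0.0656 and 0.0658 without the untreated library.

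The same genes were also set against the number of granzyme UMIs. CD8 cells were split into those with 0, 1 to 4, 5 to 19 and 20 or more UMIs of the 4 granzymes, and CPM were averaged over the 4 libraries, which is a description with no test. Irf8 was at 249, 361, 486 and 642 CPM from the lowest bin to the highest, and it went up at every step in each library. Il2rb was at 766, 1003, 1138 and 1204 CPM, Prf1 at 726, 1047, 1180.0 and 1436, and Gzmb at 1574, 2649.8, 2866 and 2990.5. With the LTβR agonist, Prf1 was at 478, 1009.8, 325 and 1086 CPM and Gzmb went from 1986 to 938 between the middle bins, and in untreated tumors Prf1 was at 1841 and then 1686 CPM in the upper bins. On the means, most of the difference in Gzmb and Il2rb lay between cells with none and cells with 1 to 4 UMIs. The mean of Ccl5 was at 6048, 3517, 1985 and 1481 CPM and that of Cxcr3 at 42.3, 19.4, 4.80 and 3.17, although Ccl5 went from 2474 to 3090.5 CPM between the middle bins under combination therapy. Klf2 was at 133, 122, 27.6 and 16.1 CPM, so that cells with 1 to 4 UMIs were near those with none. Tcf7 was at 85.1, 13.4, 2.84 and 12.7 CPM, with the last value raised by the LTβR agonist library, which was at 41.4 CPM in a bin of 8 cells. Depth rose over the bins too, from medians of 5564 to 6499 UMIs in cells with none to 11576 to 13046 in those with 20 or more.

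**Figure D4:**
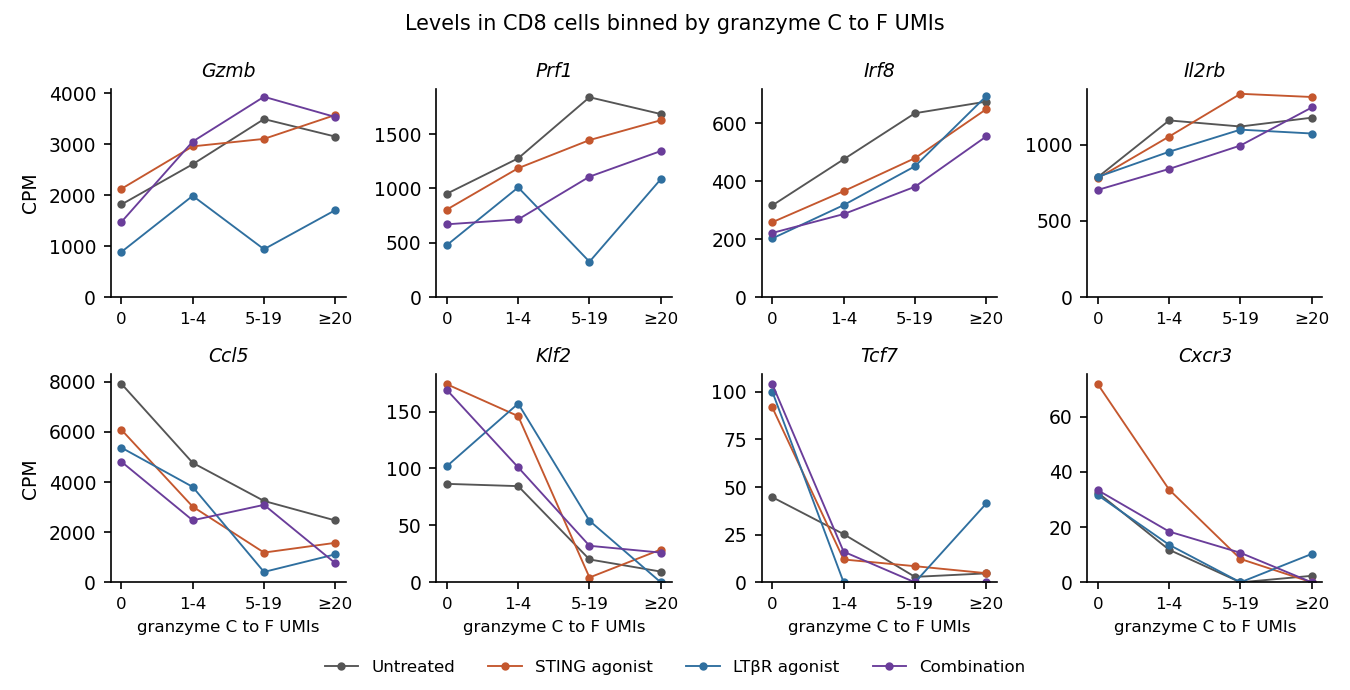
CPM of 8 genes in CD8 cells with 0, 1 to 4, 5 to 19 and 20 or more granzyme C to F UMIs, with 1 line per library. The LTβR agonist line rests on 7 and 8 cells in the upper bins. Irf8 goes up at each step in all 4 libraries.

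Treatments were next compared within the granzyme C to F cells. With 1 library per group a gene was counted when CPM + 10 differed 1.5-fold and at least 50 UMIs were seen over both libraries, and no test was made. For the STING agonist over untreated, 165 of 4107 genes (4.02%) were higher and 281 (6.84%) lower. For the LTβR agonist these were 153 (5.25%) and 489 (16.8%) of 2913, and for the combination 120 (3.14%) and 302 (7.91%) of 3816. The 3 comparisons share the untreated library. The number of genes counted depended on depth, with only 15 cells in the LTβR agonist library.

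With the STING agonist, the immediate early and heat shock genes were mostly higher, 7 of 12 with 1 lower and a median log2 ratio of 0.76, beside a median of -0.03 over all genes. Hspa8, a constitutive chaperone, was at 853 CPM in untreated and 1457 CPM in STING agonist cells (log2 ratio 0.77, 0.56 to 0.97), and in other CD8 cells its ratio was 0.57. The inducible chaperones Hspa1a (15.5 and 124 CPM) and Hspa1b (34.9 and 116 CPM) lay in at most 10 cells in both libraries. Of 8 cytokines 5 were higher and 1 lower (median 0.70): Ifng was at 365 CPM in untreated and 680.3 in STING agonist cells (0.88, 0.58 to 1.18), and 10 cells held 66.2% of its UMIs in the latter. Csf1, a macrophage growth factor, was at 131 and 224 CPM. Ltb, a ligand chain of LTβR, was at 249.7 and 399.9 CPM, and Ccl5 was the lower gene at 2819 and 1436 CPM. Xcl1 and Ccl1, which were also higher, were carried by 10 or fewer cells in both libraries. Of 14 interferon-stimulated genes 3 were higher, Isg15 and Usp18 among them, and 1 was lower (median 0.29). Isg15 was at 202 and 377 CPM and Usp18 at 20.7 and 98.1 CPM, and 10 cells held 88.6% of the Isg15 and 87.5% of the Usp18 UMIs with the STING agonist.

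The genes furthest apart with the STING agonist, leaving out those held mainly by 10 cells where they were higher, were Pkp3, a plakophilin of cell junctions (50.5 and 152 CPM in untreated and STING agonist cells, log2 ratio 1.42, 0.76 to 2.09), and Srsf7, a splicing factor (80.2 and 165 CPM, 0.96). On the lower side were Egln1, an oxygen sensor (127 and 49.0 CPM, -1.21), and Bcl2l1, which encodes the survival protein Bcl-xL (107 and 42.9 CPM, -1.15). Prf1 was at 1756 and 1563 CPM and Gzmb at 3304 and 3403 CPM, so neither differed 1.5-fold between these libraries. The checkpoint list had no gene past 1.5-fold among 15.

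Under combination therapy 6 of 12 heat shock and immediate early genes were higher, 2 lower and 4 between, with a median of 0.83 beside -0.06 over all genes. Hsph1 was at 55.6 CPM in untreated and 164 CPM in combination cells (1.40, 0.73 to 2.08), and Fosb at 27.2 and 145 CPM, with 94.8% of its combination UMIs in 10 cells. Ly6c2, a surface protein of effector and memory CD8 cells, was at 972 and 393 CPM (-1.28, -1.58 to -0.99), with other CD8 cells at 894 and 796 CPM. Nr4a2, a nuclear receptor induced by antigen receptor signals, was at 472 and 194 CPM (-1.24), and Tox at 312 and 164 CPM (-0.89, -1.37 to -0.42). Of 7 chemokine receptors and adhesion genes 4 were lower, among them Ccr2, Cx3cr1 and Itga4, and none higher, with a median of -0.69. Tnfrsf9 and Cd28, costimulatory receptors, were at 327 and 497 CPM and at 149 and 233 CPM. The highest genes by the same rule were Zfp36l2, an RNA-binding protein (154 and 284 CPM, 0.84), and Chchd2, a mitochondrial protein (212 and 376 CPM, 0.80).

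In the 15 cells of the LTβR agonist library 4 of 12 listed granule genes were lower and none higher (median -0.29), where 16.8% of all genes were lower. The list leaves out Gzmc, Gzmd, Gzme and Gzmf, which chose the cells. These made up 0.318% of all UMIs in untreated and 0.952% in LTβR agonist cells. Gzmb was at 3304 CPM in untreated and 1426 in LTβR agonist cells (-1.21, -1.46 to -0.96), and Prf1 at 1756 and 808 CPM (-1.11, -1.45 to -0.78). Other CD8 cells showed ratios close to these, -0.99 and -0.94. Of 10 interferon-stimulated genes 6 were lower (median -0.85), of 13 glycolysis and hypoxia genes 7 were lower and 1 higher (median -0.72), and of 8 immediate early and heat shock genes 5 were lower and 1 higher (median -0.85), beside a median of -0.11 over all genes. Ldha, a glycolytic enzyme, was at 956 and 546 CPM (-0.80, -1.22 to -0.39). Alcam, an adhesion molecule (202 and 32.9 CPM, -2.31, -3.57 to -1.07), and Nr4a2 (472 and 131 CPM, -1.77) were the lowest by the rule. Alcam rested on 5 UMIs in 3 LTβR agonist cells, and after thinning the ratios were -4.46 for Alcam and -2.69 for Nr4a2. No higher gene could be named, because 10 of 15 cells hold most UMIs of any gene in that library.

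T cell receptor V segments were read from the same RNA to ask whether the granzyme C to F cells shared receptors. A cell was given a β segment when 1 Trbv gene held at least 75% of its Trbv UMIs, which succeeded in 60, 47, 13 and 48 granzyme C to F cells. The chance that any pair of them carried the same Trbv segment was 26.3%, 20.9%, 17.9% and 19.4%, against 8.40% to 12.5% in other CD8 cells. It was higher in 4 of 4 libraries, by 10.5 percentage points on average, with an exact two-sided sign-flip permutation p of 0.13, the smallest that 4 libraries allow. For α segments the chances were 15.7%, 63.9%, 14.3% and 42.8% against 8.90%, 17.4%, 7.51% and 22.3%.

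**Figure D5:**
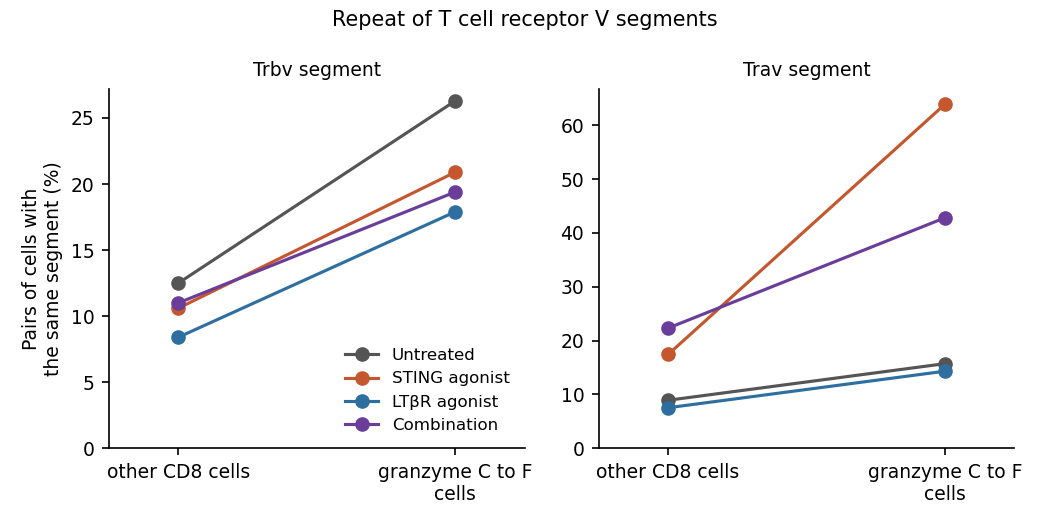
Percent of pairs of cells with the same Trbv (left) or Trav (right) segment, in other CD8 cells and granzyme C to F cells, with 1 line per library. The percent is higher in the granzyme C to F cells in all 4 libraries for both chains.

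Different segments led in different libraries. In untreated tumors Trbv3 was carried by 28 of 60 granzyme C to F cells (46.7%, 33.7 to 60.0) and by 22.7% of other CD8 cells. With the STING agonist Trbv29 led with 17 of 47 (36.2%, 22.7 to 51.5, against 17.5%), followed by Trbv19 with 12. Under combination therapy Trbv13-1 led with 18 of 48 (37.5%, 24.0 to 52.6, against 20.9%) and Trbv15 followed with 9 (18.8% against 7.53%), and with the LTβR agonist Trbv3 led with 5 of 13.

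Where both chains were assigned, a single pair of segments held a large share of the cells. Trav14d-3-dv8 with Trbv29 was carried by 16 of 34 granzyme C to F cells in STING agonist tumors (47.1%) and by 18.6% of other CD8 cells. Trav16 with Trbv3 was carried by 8 of 23 in untreated tumors (34.8%), and Trav14d-3-dv8 with Trbv13-1 by 10 of 25 under combination therapy (40%), where 23.6% of other CD8 cells had it. Gzmf was the leading granzyme in 15 of 16, 6 of 8 and 10 of 10 cells of these pairs. Over all granzyme C to F cells of the STING agonist, untreated and combination libraries, Gzmf led in 39 of 52, 43 of 70 and 35 of 52. In another STING agonist pair, Trav14d-3-dv8 with Trbv19, Gzmf led in 2 of 5 cells, Gzme in 2 and Gzmc in 1. Most cells of each pair lay below the threshold, since granzyme C to F cells were 26.7% (16.1 to 39.7), 21.6% (9.83 to 38.2) and 9.71% (4.75 to 17.1) of the CD8 cells with the pair. For the pair with Trbv19 they were 18.5% (6.30 to 38.1). A shared pair of segments is not a shared clone, as junction sequences were not read, tumors were pooled, and the Trav14 genes have near-identical copies.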

How the data were processed

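RNA was counted in sorted CD45+ cells of pooled tumors, with 1 library in each of 4 groups. The authors made 10x 5-prime libraries, counted UMIs with Cell Ranger 7.1.0 against mm10 and deposited raw counts of 32285 genes in 1 matrix, in which the number after the barcode hyphen gives the library. A sample was assigned by its label of treatment, and 0 columns were left out.

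The study's limits of 300 to 5000 genes and at most 6% mitochondrial UMIs were applied here. The cells and gene lists were chosen with earlier results of these data known. Summed UMIs were tested with edgeR 4.0.16 (TMM, low-count filter, quasi-likelihood, library block) in R 4.3.3, with DESeq2 1.42.0 as an alternative; 12 rule genes and 639 V(D)J genes were left out. The block is the library itself, since both sums come from the same pool of tumors. Within a treatment comparison, CPM have exact Poisson intervals and log2 ratios are of CPM + 10, which understates changes of low genes. The procedure was tested on simulated data. Python 3.11.15, NumPy 2.4.6, SciPy 1.17.1, pandas 2.3.3 and matplotlib 3.10.9 were used.

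Named genes were the 12 called genes with the largest fold in each direction, with the same sign in 4 libraries and at least 50 UMIs in the higher arm, without mitochondrial and ribosomal protein genes. Between treatments they were the 4 highest and 4 lowest genes with at least 100 UMIs, without those of which 10 cells held most UMIs. Up to 4 genes of each of 15 lists were added, with further members where a sentence needed their role. The leading-gene groups were set after their values were seen. No doublet caller was run. Cells with at least 2 markers of another class were left out in an alternative (22.9%, 9.62%, 13.3% and 9.62% of granzyme C to F cells against 21.7%, 9.49%, 20.2% and 18.9% of other CD8 cells). Other alternatives were another granzyme minimum (3, 10 or 20 UMIs), the 0-UMI cells as the comparison, thinning, other denominators, pseudocounts of 1 and 50 CPM and leaving out each library. CD8 cells of 8000 to 16000 UMIs and cells without Fcer1g were added after seeing the data. Some genes counted in the lists and among the named genes are not reported here by name.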

Additional observations from a re-analysis of the deposited data

Results flagged for a closer look

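In groups of 4 libraries, 2 of the named genes had a library far from the others in the log2 ratio of (CPM + 10) between granzyme C to F cells and other CD8 cells, and chance alone gives about 1 such group in 20. Tjp1 had a ratio of 0.31 in the STING agonist library, below the other 3 libraries, where it was at 33.4 to 42.0 CPM against 5.82 to 9.27 CPM. Itgb8 had a ratio of -1.50 in the LTβR agonist library, where other CD8 cells had 18.3 CPM against 6.79 to 7.80 CPM in the other libraries and the granzyme C to F cells had none.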

How the results depend on the processing

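The ratios of shares between treatments, recomputed 50 times, stayed within their 95% intervals, while the shares themselves moved beyond theirs (untreated 7.63%, with 3.92% at a minimum of 20 UMIs and 14.9% at 8000 to 16000 UMIs). The numbers of higher and lower genes (441 and 619) were 308 and 372 by DESeq2, 163 and 276 with no replicate block, 90 and 166 after thinning each cell to 2000 UMIs, 206 and 487 in CD8 cells of 8000 to 16000 UMIs, and 272 and 361 without cells with an Fcer1g UMI. Leaving out each library gave 211 to 426 higher and 355 to 506 lower genes. Of the named or listed genes, 15 of 42 higher and 21 of 55 lower kept their call in every alternative in which they could be fitted. The higher genes include Gzmg and Gm4022, which are given above without a p-value. Cish turned to -0.03 after thinning, Stmn1 to -0.08 in the depth window, and Fos and Jun to 0.02 and 0.05 without Fcer1g cells; the cause was not tested. The V segment difference was 9.45 to 11.2 points without 1 library, 20.1 for Trav.

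Between treatments, higher and lower genes for the STING agonist, the LTβR agonist and the combination were 46 and 82, 55 and 223, and 33 and 100 with a pseudocount of 50 CPM. After thinning they were 45 and 63, 20 and 92, and 36 and 85. With no minimum of 50 UMIs they were 682 and 980, 1485 and 2394, and 689 and 1211. Fewer UMIs, or genes of few UMIs, enter by construction. With 1 library per treatment no spread between pools is known, and 15 cells limit the LTβR agonist values.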

Other observations

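The granzyme C to F cells were also split by their leading granzyme, a choice made after the values were seen and given as a description with no test. Cells led by Gzmc numbered 29 (12, 8, 6 and 3 by library, in the order used above), those led by Gzmd and Gzme together 38 (16, 6, 1 and 15), and those led by Gzmf 120 (41, 38, 8 and 33). Gzmb was at 5919, 3091 and 2647 CPM in these groups. Fcer1g was found in 51.7%, 18.4% and 30% of their cells, at 591, 97.6 and 329 CPM, and Tyrobp in 7, 3 and 10 cells. Serpinb9b was at 10.7, 105 and 99.6 CPM from 2, 5 and 21 cells, and 3 cells or fewer held 100% and 95% of its UMIs in the Gzmc-led cells and those led by Gzmd and Gzme. Gzma was at 2405 CPM in the Gzmc-led cells, but 3 cells held 90.6% of its UMIs there. Xcl1, a chemokine that draws cross-presenting dendritic cells, was at 481, 0 and 13.5 CPM and came from 5 of the Gzmc-led cells.

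Cycling CD8 cells, which the rule leaves out, carried the granzymes more widely in the STING agonist library. At least 5 UMIs were found in 11 of 132 cycling cells in untreated tumors (8.33%, 4.23 to 14.4), 14 of 71 with the STING agonist (19.7%, 11.2 to 30.9), 11 of 151 with the LTβR agonist (7.28%, 3.69 to 12.7) and 16 of 141 under combination therapy (11.3%, 6.63 to 17.8). All 4 intervals overlapped, and the cycling cells had a median of 10648 UMIs.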
